A study of Mus musculus with 6 samples.

Results

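The 33 genes described here encode the enzymes of the tricarboxylic acid (TCA) cycle, the entry of pyruvate into it, its cytosolic and shuttle branches, and the enzyme that diverts cycle carbon to itaconate. They were chosen by symbol from a fixed list, made with earlier results of these data known. All 33 were found among the 23034 rows of the deposited table. Expression was measured by RNA sequencing in wild-type mouse bone marrow-derived macrophages, primary marrow cells grown in culture, with 3 libraries per group. All cells had been matured with M-CSF (10 ng/ml), and 24 hours of IL-4 (20 ng/ml) had turned them into M2 macrophages. The control group then received PBS, and the other group received SA@BATMAN5 for 24 hours. The series title places the agent with tuftsin clusters directed at Fc gamma receptors, in the setting of infection after sepsis. The labels used here name no strain, age or sex, and they leave it unsaid if each replicate is an animal or a culture of its own. The p-values thus rest on the spread among these 6 libraries, and that spread may be technical.

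Pyruvate enters the cycle through the pyruvate dehydrogenase (PDH) complex, which PDH kinases switch off and PDH phosphatases switch on. Citrate synthase joins the resulting acetyl group to oxaloacetate, and the cycle then runs through isocitrate, 2-oxoglutarate, succinyl-CoA, succinate, fumarate and malate. Macrophages activated by bacterial products are known for a cycle that is interrupted at isocitrate, where cis-aconitate is drawn off to itaconate by Acod1, and at succinate, whereas IL-4-treated macrophages are known to keep an intact cycle. The genes are therefore described in the order of the steps, around these 2 points.

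Control libraries held 38740103 to 47018154 counts and SA@BATMAN5 libraries 29739263 to 37212125, with every treated library shallower than every control. Levels are given as CPM (counts scaled to 1000000 per library after TMM scaling), as mean ± SD over n = 3 libraries, and changes as log2 fold changes of SA@BATMAN5 over control ± SE. All 10 macrophage markers checked had counts, and their summed level was 16651 to 16868 CPM in control and 23028 to 23187 CPM in SA@BATMAN5 libraries. Of 11 neutrophil markers 7 had counts (24.3 to 27.4 and 98.7 to 113 CPM in sum), with Ly6g, Mpo, Ctsg and Retnlg at 0. Of 10 fibroblast markers 9 had counts (930 to 1135 and 1262 to 1458 CPM), with Lum at 0. Of 8 dendritic cell markers 5 had counts (45.5 to 55.1 and 8.89 to 9.88 CPM), with Flt3, Cd209a and Siglech at 0. The fall of that sum was the fall of Cd83, from 43.8 to 2.37 CPM, while Ccr7 rose from 0.0894 to 3.27 CPM. Lymphocyte markers summed to 6.49 CPM or less, with Cd3e, Cd3d and Ncr1 at 0. Transcripts of the mitochondrial genome took 3.81% to 3.93% of control and 2.74% to 2.93% of SA@BATMAN5 counts. With all libraries thinned to the depth of the shallowest, each of the 27 calls among the 33 genes described below was kept in the same direction and Pdhx was added. The part of other cell types in the results was not tested.

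SA@BATMAN5-treated cultures had far more Acod1 mRNA, somewhat more citrate synthase mRNA, and less mRNA for several of the enzymes that follow. Of the 33 genes 10 were higher and 17 lower at a Benjamini-Hochberg adjusted p under 0.05 (edgeR's quasi-likelihood test), and 6 were not called. Over all 13474 genes tested 58.2% were called, 29.5% higher and 28.7% lower. The share called lower among the 33 thus lay above that of all genes, and the share called higher near it. Since the 33 were chosen with earlier results of these data known, this comparison is no independent support for a change of the pathway. Among tested genes at least as abundant as the least abundant of the 33 (Pdk4), 32.7% were higher and 31.8% lower. The median log2 fold change was -0.22 over the 33 genes and 0.00 over all genes tested. All 33 passed the filter on low counts. Most changes were modest. Only Acod1 and Me1 rose, and only Pdk4, Pdp1 and Got1 fell, by 2-fold or more, against 9.17% and 7.35% of all genes tested. When the test asked for a change of over 1.2-fold, 4 genes (Acod1, Me1, Pdk3 and Cs) remained higher and 10 (Pdk4, Pdp1, Got1, Suclg2, Fh1, Pdk1, Idh3a, Idh3g, Mdh1 and Aco1) remained lower, against 18.2% and 17.4% of all genes. The same 14 genes were called in the same direction under each of the 18 other settings tried. Those settings include the 1.2-fold test itself, so no further gene could have been called under all of them. Idh1, Idh2, Suclg1, Pck2 and Glud1, all lower, lost their call under the 1.2-fold test alone. The 6 further rises, all under 1.2-fold, depended on how libraries were scaled: with library totals only, or with upper-quartile scaling, 4 genes were higher, and 19 or 20 lower. Scaling by library totals moved the median gene by -0.07 on the log2 scale and turned the split of all calls from 3980 higher and 3866 lower into 3291 and 4694. In bulk RNA, fewer cells that express a gene and less of its RNA per cell cannot be told apart.

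**Figure D1:**
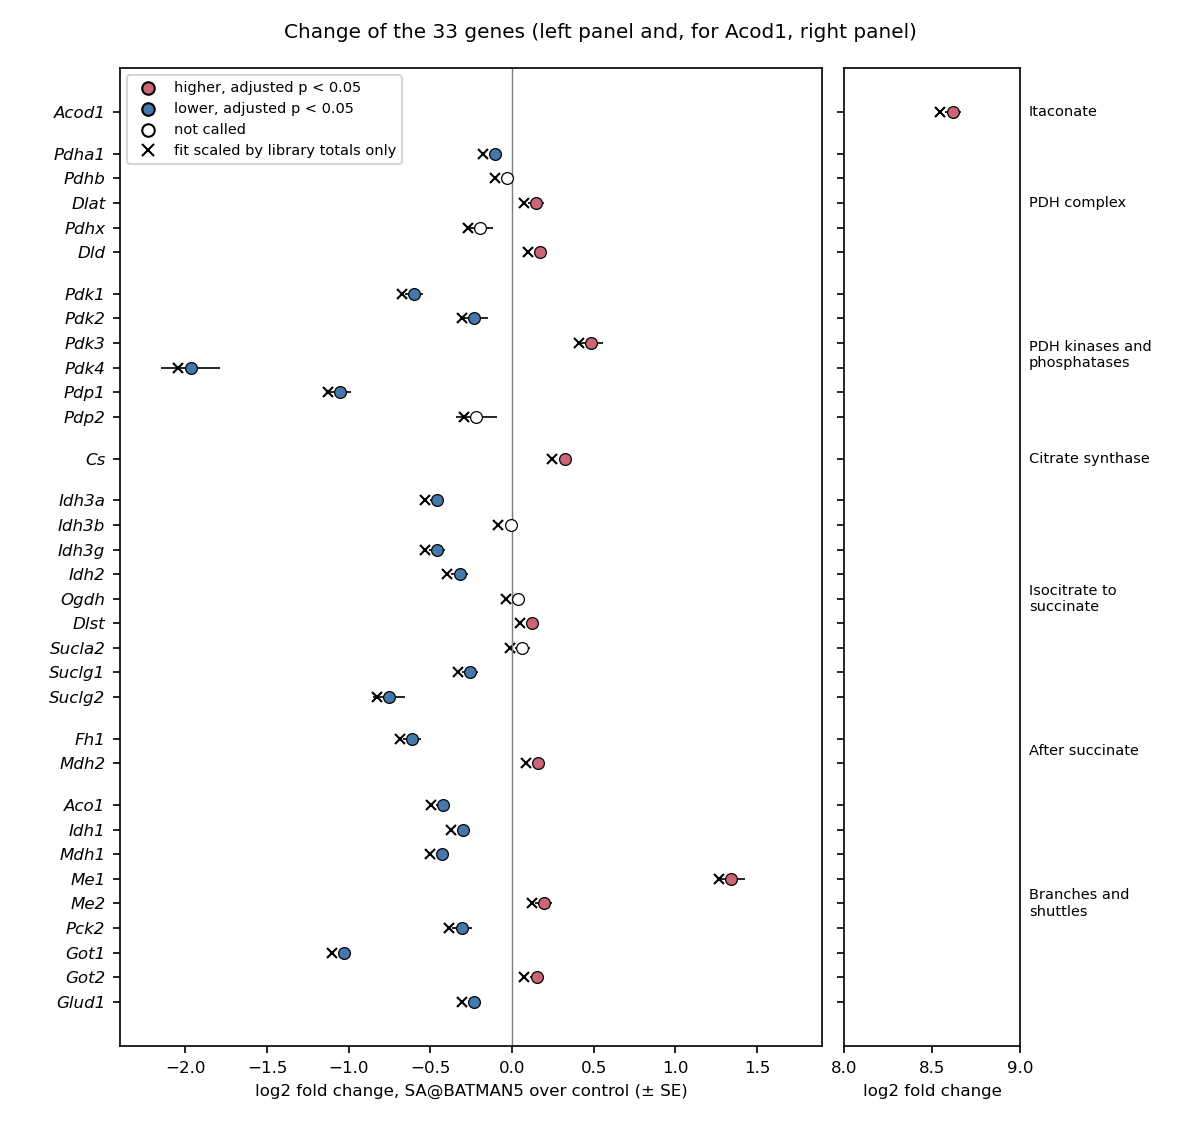
Log2 fold change of each of the 33 genes, SA@BATMAN5 over control, with its SE, grouped by step; crosses give the fit with library totals only. Acod1, at 8.62, has a panel of its own, and the small rises of Dlat, Dld, Dlst, Mdh2, Me2 and Got2 lie close to 0 under that fit.

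Acod1 encodes cis-aconitate decarboxylase, which makes itaconate, a metabolite known to inhibit succinate dehydrogenase. It stood at 7.41, 6.62 and 6.84 CPM in the control libraries and at 2704, 2769 and 2752 CPM in the SA@BATMAN5 libraries. Each treated library lay far above each control library. The mean rose 394-fold, a log2 fold change of 8.62 ± 0.04 (adjusted p 3.08e-20), and 22 of the 13474 tested genes had a larger log2 fold change. Acod1 alone took 0.263% to 0.270% of all counts in treated libraries, against 0.240% to 0.244% for the other 32 genes together. In control libraries these shares were 0.000681% to 0.000754% and 0.274% to 0.277%. Per transcript length, on the authors' FPKM scale, Acod1 went from 0.0365 ± 0.0027 times the level of citrate synthase mRNA to 11.5 ± 0.24 times that level (SD, n = 3). The treated level of Acod1 was 1.81 ± 0.02 times the summed FPKM of 13 cycle enzyme genes, among them the 3 subunits of isocitrate dehydrogenase 3.

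The 250 bases before the start of 3 genes are shown to set the itaconate gene Acod1 beside Cs, the step that supplies it and a gene with a small rise, and beside Got1, a branch gene that fell. They are RefSeq sequences on the build GRCm38.p6, printed 5′ to 3′ in the direction of the gene. The counts were made on another build, GRCm39. In the Acod1 sequence capitals mark a match to an NF-kappaB-type motif (GGANNTTCC or its reverse complement GGAANNTCC) and a TATA motif (TATAAA or TTTATA). In Cs and Got1 they mark the motif CCAAT or ATTGG. Motifs in capitals do not overlap each other. A CCAAT-type match in Acod1 is left in lower case, as is a match in Got1 to another motif searched (AAGGTCA).
Acod1, chr14:103046762-103047011, plus strand: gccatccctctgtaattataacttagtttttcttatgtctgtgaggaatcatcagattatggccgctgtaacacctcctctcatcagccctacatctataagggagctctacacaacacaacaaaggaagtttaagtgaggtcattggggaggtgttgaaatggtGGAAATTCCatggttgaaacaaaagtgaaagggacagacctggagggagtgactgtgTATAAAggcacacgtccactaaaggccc
Cs, chr10:128337477-128337726, plus strand: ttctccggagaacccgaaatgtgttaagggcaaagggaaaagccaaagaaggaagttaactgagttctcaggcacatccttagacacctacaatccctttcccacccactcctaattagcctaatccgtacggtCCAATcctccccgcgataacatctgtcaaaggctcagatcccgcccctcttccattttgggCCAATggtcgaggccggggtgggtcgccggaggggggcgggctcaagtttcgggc
Got1, chr19:43524606-43524855, minus strand: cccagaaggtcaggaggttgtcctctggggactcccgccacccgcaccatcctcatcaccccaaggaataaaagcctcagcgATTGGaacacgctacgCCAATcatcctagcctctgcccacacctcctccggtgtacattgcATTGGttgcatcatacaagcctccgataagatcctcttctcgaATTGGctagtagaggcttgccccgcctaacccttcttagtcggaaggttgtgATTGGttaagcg

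A sequence was found for 30 of the 33 genes. The NF-kappaB-type motif stands 85 to 77 bases before the start of Acod1 (bases -85 to -77), and the TATA motif at -28 to -23. Of the 30 genes, Acod1 and Idh1 hold the NF-kappaB-type motif, against 3.59% of all 32851 stretches of the same kind, and Acod1 and Got2 hold the TATA motif, against 12.4%. The motif CCAAT was found for 18 of the 30 genes, against 33.8% of all stretches. The counts of genes pool 39 stretches, since some genes have several starts, and the shares are per single stretch, so they cannot be compared directly. The match of Idh1 to the NF-kappaB-type motif lies before its other listed start. The motif CCAAT occurs 5 times in the Got1 sequence. Acod1 has a GC content of 44.4% over these bases, while the median over the 30 genes was 61.6% and that over all stretches 52.4%. Dld alone, at 43.6%, was lower among the 30 (first listed start of each gene). These matches describe letters and not binding, and the letters of the NF-kappaB-type motif were chosen after the sequences had been seen.

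Within the PDH complex the subunits changed little and in different directions. Of 5 genes Dlat and Dld were higher, Pdha1 was lower, and Pdhb and Pdhx were not called. Of all genes tested 29.5% were higher and 28.7% lower. Dlat, the acetyltransferase core, stood at 55.5, 53.6 and 59.7 CPM in control and at 62.5, 62.3 and 62.2 CPM in treated libraries. All treated libraries lay above the controls, by a log2 fold change of 0.15 ± 0.05 (adjusted p 0.0156). Leaving out control replicate 1 raised the adjusted p of Dlat to 0.055, leaving out control replicate 2 raised it to 0.0738, and library totals only gave 0.205. Dld, the lipoamide dehydrogenase that the PDH and 2-oxoglutarate dehydrogenase complexes share, stood at 113, 103 and 111 CPM in control and 122, 127 and 120 CPM in treated libraries, a log2 difference of 0.17 ± 0.04 (adjusted p 0.00276). Its groups did not overlap either, and with library totals only its adjusted p was 0.0520. Pdha1, the alpha subunit that the kinases phosphorylate, stood at 97.7, 93.4 and 94.7 CPM in control and at 89.6, 88.2 and 88.6 CPM in treated libraries. The log2 difference of Pdha1 was -0.10 ± 0.04 (adjusted p 0.0284). Without control replicate 1 the log2 fold change was -0.09 (adjusted p 0.0707), and without SA@BATMAN5 replicate 2 or 3 it was -0.10 in both cases (0.0677 and 0.0655), so the call was lost at nearly the same size. Pdhb, the beta subunit, had 66.7 ± 1.53 and 65.3 ± 1.80 CPM (adjusted p 0.573). Pdhx, which anchors Dld to the core, had 23.0 ± 0.252 and 20.1 ± 2.47 CPM, at an adjusted p of 0.0524, and the groups overlapped through SA@BATMAN5 replicate 2. Without that library its log2 fold change was -0.30 (adjusted p 0.00469), and it was called lower under 10 of the 18 other settings in all, among them library totals only (0.0111), limma-voom (0.0312) and thinned counts (0.0470). The summed FPKM of the 5 subunit genes was 123 ± 3.74 in control and 119 ± 4.25 in treated libraries, and the groups overlapped.

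The regulators of the complex moved more than the complex. Of the 4 kinase and 2 phosphatase genes 4 were lower, 1 was higher and 1 was not called. The shares over all genes tested were 28.7% lower and 29.5% higher. Pdk4, the kinase known for its rise in fasting and with fatty acid use, stood at 4.93, 5.31 and 6.28 CPM in control and at 1.58, 1.21 and 1.41 CPM in treated libraries. Every treated library was below every control, with a log2 fold change of -1.97 ± 0.18 (adjusted p 3.56e-07). On the log2(FPKM + 1) scale, which shrinks changes of low genes, it was -0.82. Pdk1, the kinase known as a HIF-1 target, went from 54.4, 49.0 and 54.6 to 33.1, 35.3 and 35.9 CPM (log2 fold change -0.60 ± 0.06, adjusted p 5.31e-07). Pdk2 was at 16.4, 15.2 and 15.9 CPM in control and at 12.7, 12.98 and 14.8 CPM in treated libraries, a log2 difference of -0.23 ± 0.08 (adjusted p 0.0300). The Pdk2 groups did not overlap, but the adjusted p of Pdk2 was 0.0803 when control replicate 1 was left out, 0.0683 for control replicate 3, 0.112 for SA@BATMAN5 replicate 1 and 0.0817 for SA@BATMAN5 replicate 2. Pdk3 was the kinase gene that rose, from 15.2, 15.7 and 15.3 to 19.8, 21.3 and 23.4 CPM, a log2 fold change of 0.48 ± 0.08 (adjusted p 8.27e-05).

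Pdp1, the catalytic subunit of the main PDH phosphatase, which counters the kinases, fell by 51.8%, from 45.2, 41.1 and 44.8 to 22.4, 19.5 and 21.2 CPM (log2 fold change -1.05 ± 0.06, adjusted p 4.35e-09). The kinase and phosphatase genes that fell thus act on the complex in opposite directions. Pdp2, the other phosphatase subunit gene of lower abundance, overlapped between groups at 10.4 ± 1.70 and 8.93 ± 0.918 CPM (adjusted p 0.162). Without control replicate 3 it was called lower (log2 fold change -0.33, adjusted p 0.0413).

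The make-up of the kinase transcripts changed with these moves. On the FPKM scale, Pdk3 made up 27.7% ± 1.31 of the summed level of the 4 kinases in control and 43.4% ± 0.846 in treated libraries (SD, n = 3). Pdk1 went from 39.3% ± 1.21 to 29.2% ± 1.22, and Pdk4 from 5.99% ± 0.694 to 1.71% ± 0.303. Pdk1 was thus the most abundant kinase transcript in all control libraries and Pdk3 in all treated libraries. The share of Pdk2 was 27.0% ± 0.592 and 25.7% ± 0.635. Summed over the 4 kinases, FPKM was 22.4 ± 0.662 in control and 18.9 ± 1.15 in treated libraries.

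**Figure D2:**
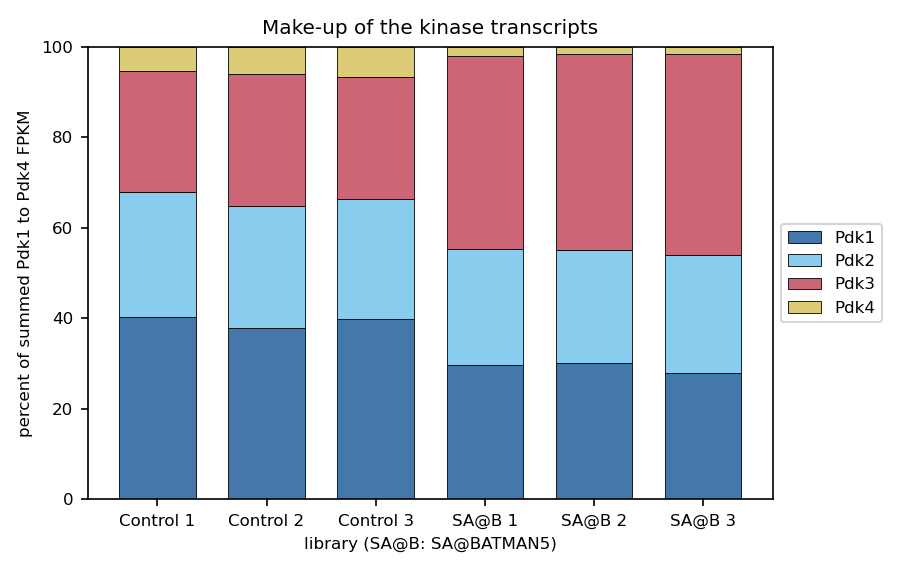
Share of each PDH kinase gene in the summed FPKM of Pdk1 to Pdk4, per library (bars, percent). Pdk1 is the largest part in the 3 control libraries and Pdk3 in the 3 SA@BATMAN5 libraries, at 42.6% to 44.3%.

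Cs encodes citrate synthase, the step that feeds the itaconate branch. It stood at 209, 216 and 212 CPM in control and at 267, 263 and 266 CPM in treated libraries. The treated libraries were all higher, a 1.25-fold rise of the mean (log2 fold change 0.32 ± 0.03, adjusted p 6.12e-07). With library totals only the log2 fold change was 0.25 (adjusted p 1.05e-05).

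Between isocitrate and succinate, 5 of 10 genes were lower, 2 higher and 3 not called, against 28.7% lower and 29.5% higher of all genes tested. The mitochondrial NAD-dependent isocitrate dehydrogenase has 3 kinds of subunit, and these moved apart. Idh3a, the catalytic alpha subunit, went from 63.8, 63.3 and 66.6 CPM to 46.1, 48.1 and 46.6 CPM, a fall of 0.46 on the log2 scale (SE 0.04, adjusted p 5.28e-07). Idh3g, the regulatory gamma subunit, went from 63.7, 69.2 and 69.1 CPM to 50.6, 48.8 and 47.5 CPM, also by -0.46 ± 0.05 (adjusted p 1.41e-06). For both genes each treated library was below each control. Idh3b, the beta subunit, overlapped between the groups at 104 ± 2.65 and 103 ± 0.781 CPM, a log2 difference of -0.01 ± 0.04 (adjusted p 0.849), and was called lower with upper-quartile scaling alone (-0.09, adjusted p 0.0459). Idh2, the mitochondrial NADP-dependent enzyme, went from 57.7, 61.5 and 59.7 CPM to 48.0, 50.7 and 44.7 CPM (log2 fold change -0.32 ± 0.05, adjusted p 0.000112).

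The 2-oxoglutarate dehydrogenase complex, which follows, showed no fall. Ogdh, its first component, overlapped at 163 ± 5.20 and 168 ± 7.91 CPM, a log2 difference of 0.04 ± 0.04 (adjusted p 0.442), with a value of -0.04 under library totals only. Dlst, its succinyltransferase core, stood at 111, 108 and 108 CPM in control and at 119, 120 and 118 CPM in treated libraries. That rise of 0.12 ± 0.03 (adjusted p 0.00805) was 0.05 with library totals only (adjusted p 0.252).

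Succinyl-CoA ligase pairs an alpha subunit (Suclg1) with either an ATP-forming (Sucla2) or a GTP-forming (Suclg2) beta subunit, and the subunit genes differed. Suclg2 went from 12.0, 11.4 and 10.8 CPM to 7.03, 6.61 and 6.57 CPM (log2 fold change -0.76 ± 0.10, adjusted p 1.40e-05). Suclg1 went from 60.4, 62.5 and 63.0 CPM to 54.6, 51.0 and 49.9 CPM (-0.26 ± 0.05, adjusted p 0.000288). Neither gene overlapped between the groups. Sucla2 overlapped at 53.5 ± 1.32 and 55.9 ± 2.64 CPM (0.06 ± 0.05, adjusted p 0.273, and -0.01 with library totals only). On the FPKM scale Suclg2 made up 12.3% ± 0.364 of the 2 beta subunit transcripts in control and 7.38% ± 0.606 in treated libraries.

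**Figure D3:**
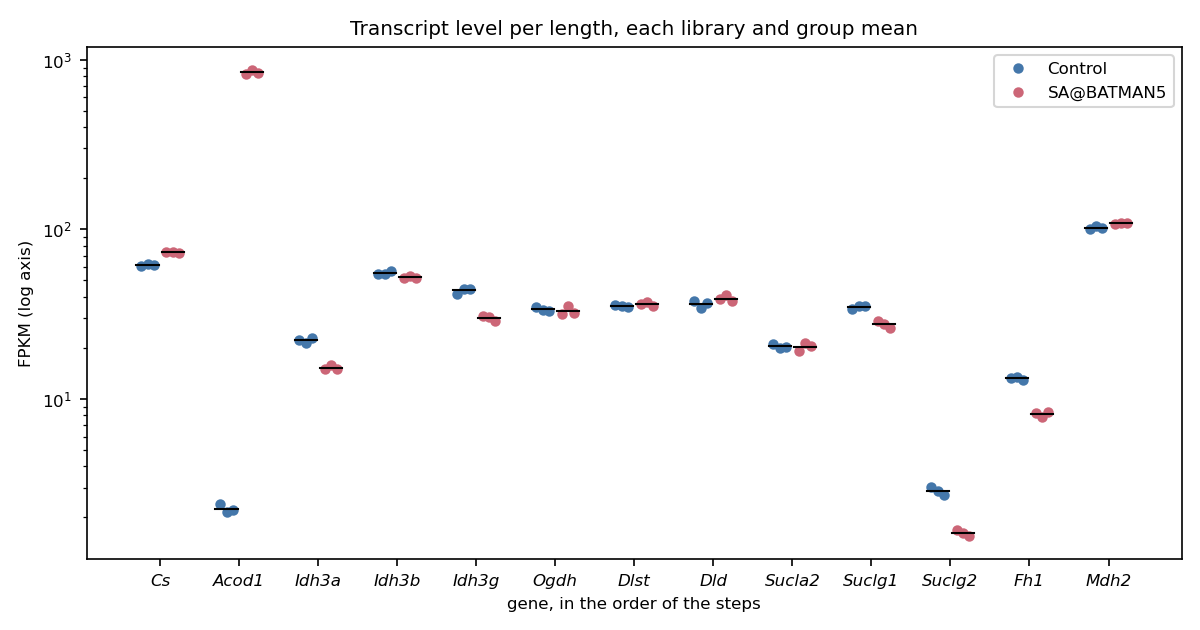
FPKM (log axis) of Acod1 and cycle enzyme genes in every library, in the order of the steps, with group means as bars. Acod1 moves from near the bottom to the top of the range. Idh3a, Idh3b, Idh3g, Suclg1, Suclg2 and Fh1 are lower in all 3 SA@BATMAN5 libraries. FPKM is not TMM-scaled, and in CPM the groups of Idh3b overlap.

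At the succinate point, succinate dehydrogenase is built from 4 subunits, whose genes were taken from a list of other pathway genes. Sdhb, the iron-sulphur subunit, was higher at 126, 130 and 127 CPM in control and 155, 153 and 155 CPM in treated libraries (log2 fold change 0.27 ± 0.03, adjusted p 6.83e-06). Sdhc, a membrane anchor, was lower, at 142 ± 1.38 and 113 ± 1.64 CPM (-0.34 ± 0.03, adjusted p 8.97e-07). Sdha, the flavoprotein, was at 242 ± 2.02 and 227 ± 3.17 CPM (-0.09 ± 0.03, adjusted p 0.0188, and 0.0583 without SA@BATMAN5 replicate 2). Sdhd, the other anchor, was not called at 125 ± 1.95 and 132 ± 1.94 CPM (adjusted p 0.0529).

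Of the 2 genes after succinate, Fh1 fell and Mdh2 was slightly higher. Fh1, fumarate hydratase, went from 41.1, 41.4 and 40.0 CPM to 27.2, 25.0 and 27.8 CPM, so that its mean fell by 34.6% (log2 fold change -0.61 ± 0.06, adjusted p 3.46e-07). No treated library reached the lowest control. Mdh2, the mitochondrial malate dehydrogenase, stood at 170, 178 and 175 CPM in control and at 195, 192 and 197 CPM in treated libraries (0.16 ± 0.03, adjusted p 0.00100). With library totals only the Mdh2 value was 0.08 (adjusted p 0.0505). Summed FPKM of the 10 genes from isocitrate to succinate was 314 ± 2.01 in control and 278 ± 9.34 in treated libraries. That of Fh1 and Mdh2 together was 115 ± 2.19 and 117 ± 0.387. Mdh2 made up most of this second sum (102 ± 2.13 and 108 ± 0.402), which hides the fall of Fh1 from 13.2 ± 0.265 to 8.18 ± 0.308. Neither sum holds succinate dehydrogenase.

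In the branches, 6 of 9 genes were lower and 3 higher, against 28.7% and 29.5% of all genes tested. For the aminotransferase pair and the malate dehydrogenase pair, the cytosolic gene fell and the mitochondrial one was slightly higher, while the other pairs differed. Got1, the cytosolic aspartate aminotransferase of the malate-aspartate shuttle, fell by 50.9%, from 99.3, 105 and 106 CPM to 51.0, 51.5 and 49.5 CPM (log2 fold change -1.03 ± 0.04, adjusted p 3.58e-11). Got2, its mitochondrial partner, was at 115, 124 and 115 CPM in control and at 134, 127 and 132 CPM in treated libraries (0.15 ± 0.04, adjusted p 0.00498, and 0.08 with an adjusted p of 0.122 under library totals only). Mdh1, the cytosolic malate dehydrogenase of the same shuttle, went from 214, 204 and 210 CPM to 156, 158 and 154 CPM (-0.43 ± 0.03, adjusted p 6.32e-08), against the small rise of Mdh2. Among the isocitrate dehydrogenases, Idh1, the cytosolic NADP-dependent enzyme, went from 245, 222 and 227 CPM to 185, 190 and 190 CPM (-0.30 ± 0.04, adjusted p 1.47e-05), and the mitochondrial Idh2 fell as well.

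For malic enzyme it was the cytosolic gene that rose more. Me1, the cytosolic NADP-dependent malic enzyme and a known target of the transcription factor NRF2, was the branch gene with the largest rise. It went from 6.96, 7.97 and 8.20 CPM to 19.8, 19.7 and 19.1 CPM, 2.53-fold (log2 fold change 1.34 ± 0.09, adjusted p 9.26e-09). Me2, a mitochondrial malic enzyme, was at 33.3, 32.7 and 32.9 CPM and at 36.5, 39.5 and 37.1 CPM (0.19 ± 0.05, adjusted p 0.00556), with an adjusted p of 0.0639 under library totals only. The groups overlapped for neither gene.

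Aco1, cytosolic aconitase, which without its iron-sulphur cluster acts as iron regulatory protein 1, went from 107, 102 and 101 CPM to 77.7, 79.5 and 74.5 CPM (-0.42 ± 0.04, adjusted p 6.18e-07). Glud1, which links glutamate to 2-oxoglutarate, went from 245, 229 and 236 CPM to 203, 199 and 203 CPM (-0.23 ± 0.03, adjusted p 4.66e-05). Pck2, the mitochondrial phosphoenolpyruvate carboxykinase, went from 30.2, 29.5 and 32.2 CPM to 26.1, 24.0 and 24.1 CPM (-0.31 ± 0.06, adjusted p 0.000596). In each of these 3 genes all treated libraries were below all controls.

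**Figure D4:**
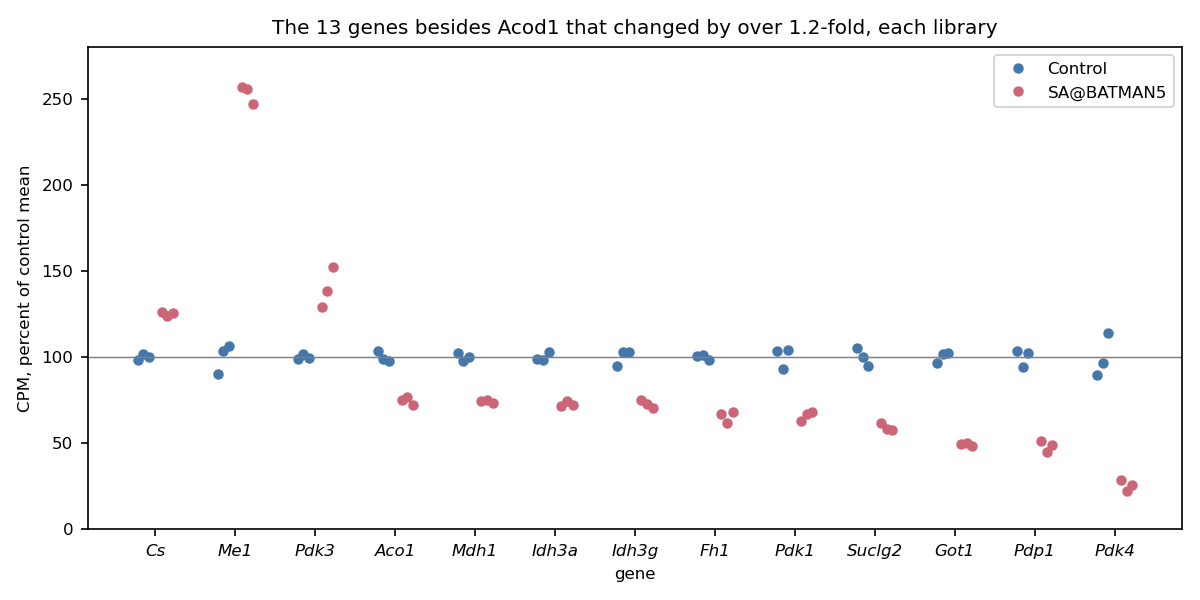
CPM of 13 genes in each library, as percent of the control mean, for the genes besides Acod1 that passed the test for a change of over 1.2-fold. Cs, Me1 and Pdk3 lie above all their control libraries and the other 10 genes below theirs.

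Ratios of 2 genes within a library do not depend on how libraries are scaled. For 28 pairs, the log2 ratio of FPKM was compared between groups. The libraries of the groups did not overlap for 22 of them, 7 higher and 15 lower with SA@BATMAN5. With 3 against 3 libraries an exact two-sided permutation test cannot go below p = 0.1, which these pairs reached, so none passes a threshold of 0.05. Over all genes tested one at a time, the groups did not overlap for 64.1%. Fh1 relative to Cs went from a ratio of 0.213 to 0.111, a change of -0.94 on the log2 scale, and Idh3a relative to Cs from 0.359 to 0.208 (-0.79). Fh1 relative to Mdh2 went from 0.129 to 0.0754 (-0.77). Of the 32 other genes 28 were lower relative to Cs in all treated libraries, 3 were higher and 1 overlapped, a tally made after the data were seen. Cs itself rose by 0.32 on the log2 scale, so the 28 include genes called higher on their own, such as Mdh2 and Got2. The share of all genes tested that were lower relative to Cs was not computed, so the tally is no result about these genes. Among partner enzymes, Got1 relative to Got2 went from 1.08 to 0.477 (-1.17), Mdh1 relative to Mdh2 from 0.867 to 0.564 (-0.62) and Me1 relative to Me2 from 0.187 to 0.415 (1.15). Sucla2 relative to Suclg2 went from 7.11 to 12.6 (0.82), and Idh3b relative to Idh3g from 1.263 to 1.73 (0.46). The ratios Idh3a to Idh3g (-0.00), Idh1 to Idh2 (0.02), Dld to Dlat (0.02), Pdha1 to Pdhb (-0.06), Ogdh to Dlst (-0.08) and Idh2 to Idh3a (0.14) overlapped between groups.

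**Figure D5:**
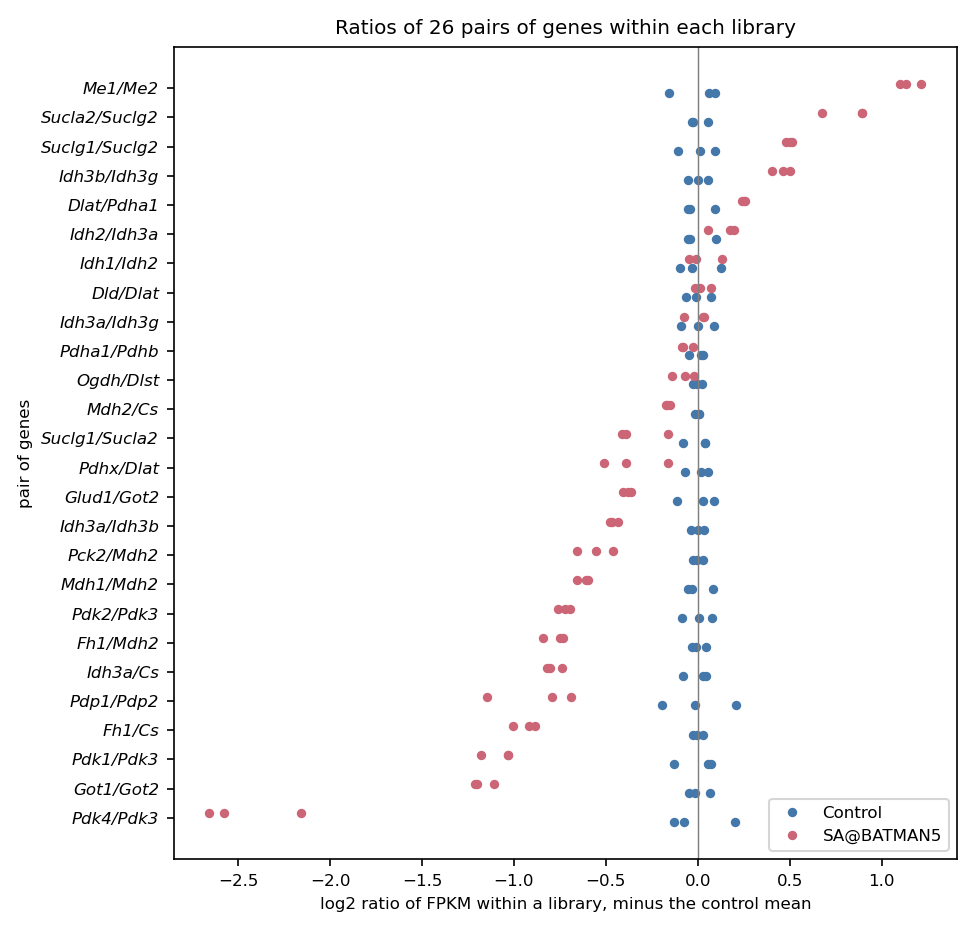
Log2 ratio of FPKM for 26 pairs of genes within each library, minus the control mean of that pair; pairs with Acod1 (8.30 to Cs and 9.09 to Idh3a) are left off for scale. Idh3a/Idh3g and Pdha1/Pdhb lie near 0, other subunit pairs such as Sucla2/Suclg2 and Idh3b/Idh3g are shifted in all treated libraries, and Got1/Got2 and Pdk1/Pdk3 lie below -1 in all treated libraries.

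Other genes of the pathway came from lists of enzymes, carriers, lactate dehydrogenases, genes linked to succinate and itaconate, and mitochondrial import and maintenance. Of 75 such genes 69 were tested, and 25 were higher, 22 lower and 22 not called. Counts for these lists stand against the 29.5% higher and 28.7% lower of all genes tested. Those of the lists together, of the enzyme list and of the import list lie near these shares. Pcx, pyruvate carboxylase, which makes oxaloacetate from pyruvate, rose from 2.71, 1.98 and 2.15 CPM to 15.7, 17.3 and 17.3 CPM (log2 fold change 2.87 ± 0.13, adjusted p 1.02e-10). Acss2, which makes acetyl-CoA from acetate outside mitochondria, rose from 9.08 ± 0.498 to 105 ± 7.03 CPM, while Acss1, its mitochondrial counterpart, fell from 32.03 ± 0.519 to 15.5 ± 0.398 CPM. Adhfe1, a mitochondrial enzyme that uses 2-oxoglutarate as acceptor, rose from 2.33 ± 0.242 to 11.8 ± 1.43 CPM. In that list of 22 enzymes 19 were tested, with 5 higher and 6 lower, against 29.5% and 28.7% of all genes.

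Among 14 carriers 7 were higher and 3 lower, against 29.5% and 28.7% of all genes. Slc25a10, the mitochondrial dicarboxylate carrier for malate and succinate, rose from 33.7 ± 1.69 to 65.3 ± 1.91 CPM, and Slc25a22, a mitochondrial glutamate carrier, from 27.5 ± 0.920 to 49.3 ± 1.27 CPM. Slc16a3, a lactate exporter, rose from 81.5 ± 2.07 to 118 ± 2.87 CPM. Slc25a13, an aspartate-glutamate carrier of the malate-aspartate shuttle, fell from 48.1 ± 0.858 to 22.1 ± 0.981 CPM. Its paralog Slc25a12, named after its values were seen, rose from 34.9 ± 1.58 to 54.3 ± 0.727 CPM. Shuttle genes thus moved in both directions.

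The lactate dehydrogenase genes Ldha and Ldhb fell, from 1005 ± 20.6 to 746 ± 6.69 CPM and from 33.3 ± 1.29 to 18.7 ± 1.13 CPM. Of 7 tested genes linked to succinate or itaconate 5 were higher and 2 lower, against 29.5% and 28.7% of all genes. Rab32, a GTPase known to interact with the Acod1 protein at bacterial vacuoles, rose from 28.1 ± 1.24 to 249 ± 3.47 CPM. Nfkbiz, which encodes IkappaB-zeta, rose from 2.48 ± 0.505 to 53.2 ± 0.642 CPM, and Nfe2l2, which encodes NRF2, from 190 ± 4.03 to 472 ± 13.2 CPM. Atf3, a stress-response transcription factor, fell from 833 ± 25.8 to 515 ± 21.1 CPM. The succinate receptor gene Sucnr1 and the 2-oxoglutarate receptor gene Oxgr1 had 0 counts in every library, which allows up to 3 counts each.

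Of 19 tested genes for mitochondrial import and maintenance 7 were higher, 6 lower and 6 not called, against 29.5% higher and 28.7% lower of all genes, with a median log2 fold change of 0.08. The outer membrane channel gene Vdac3 rose from 74.1 ± 2.92 to 141 ± 4.73 CPM and Vdac2 from 269 ± 6.10 to 335 ± 4.84 CPM. Hspe1, a matrix chaperonin, went from 73.1 ± 3.33 to 110 ± 6.51 CPM, and Timm23, of the inner membrane translocase, from 37.3 ± 2.04 to 52.7 ± 2.34 CPM. Adjusted p-values of the genes named in these last 4 paragraphs that rose or fell were 2.57e-06 or smaller (edgeR).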

How the data were processed

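Per the file headers, the authors deposited whole-number counts per gene and FPKM, which divides by transcript length and by library total. Tools listed in the submitters' processing notes are StringTie 2.1.2, HISAT2 2.2.0 and DESeq2 1.26.0, with the build GRCm39. Which tool counted reads, on which annotation and with which strand setting, is not given in the sources used here, so reads shared with overlapping genes, pseudogenes or paralogs may be divided in unknown ways. The column prefix S-5 was read as SA@BATMAN5 and N as control, and the last number as the replicate. The authors' own fold changes were not used.

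Genes were filtered with filterByExpr (minimum count 10, minimum total 15), given TMM factors and compared by glmQLFTest of edgeR 4.0.16 in R 4.3.3 (two-sided, no covariate), with Benjamini-Hochberg adjustment over all 13474 genes and a threshold of 0.05. SEs follow from the log2 fold change and the F statistic. glmTreat tested for changes over 1.2-fold. FPKM is not TMM-scaled. Chi-square values per degree of freedom between replicates were 4.66 to 8.10, above sampling noise, so none was merged. The test was first tried on simulated data, with a common dispersion for all genes. It recovered 11 of 49 genes changed by 1.2-fold (22.4%) and 47 of 50 changed by 1.5-fold (94%). It called 8 of 13255 unchanged genes. In the simulation few genes were changed, whereas 58.2% of the genes tested were called in the data, so these rates may not hold there. Changes near 1.2-fold may still be missed.

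Members and lists were chosen with earlier results of these data known. All members are named, with values per library where called. Of the other lists, the succinate dehydrogenase subunits and up to 4 genes per list with the smallest p, called and at a mean of at least 5 CPM, are named. Alternatives were other scalings (DESeq2 size factors, library totals, upper quartile, TMM without the 100 most abundant genes), other filters (none, or at least 1 CPM in 3 libraries), DESeq2 1.42.0, limma-voom and limma on log2(FPKM + 1) (limma 3.58.1), thinning, the replicate block, leaving out each library, and count-based ratios with 0.5 added. Figures used matplotlib 3.10.9. Floors cover counting error only.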

Additional observations from a re-analysis of the deposited data

How the results depend on the processing

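Of the 33 genes, 14 kept their direction and call under all 18 alternatives (Acod1, Cs, Me1, Pdk3, Pdk4, Pdp1, Got1, Suclg2, Fh1, Pdk1, Idh3a, Idh3g, Mdh1 and Aco1). The alternatives include the test for a change of over 1.2-fold. Only under that test did Idh1, Idh2, Suclg1, Pck2 and Glud1 lose their call. The count of higher genes, 10, became 4 with library totals only, 4 with the upper quartile, 4 for a change of over 1.2-fold and 5 with limma on log2(FPKM + 1). For a change of over 1.2-fold, the count of lower genes went from 17 to 10, all calls from 27 to 14, and calls in the other pathway lists from 47 to 28, of which lower ones from 22 to 11, as that test asks for more. The small value of Ogdh turned to -0.0357 with library totals only, -0.0426 with the upper quartile and -0.0320 with limma on log2(FPKM + 1). Sucla2 turned to -0.0107, -0.0175 and -0.00815 under the same 3. Leaving out 1 library at a time gave 24 to 27 calls among the 33 genes (9 to 10 higher, 15 to 17 lower) and turned 5 uncalled values: Idh3b ranged from -0.0279 to 0.00736, Ogdh from -0.00254 to 0.0605, and the log2 ratios Dld to Dlat from -0.00882 to 0.0570, Idh1 to Idh2 from -0.0303 to 0.0876, and Idh3a to Idh3g from -0.0489 to 0.0406. Same-numbered libraries did not deviate together (correlations -0.01 to 0.04), so the numbers were not taken as pairs. With the replicate block 28 genes were called, Pdhx being added (adjusted p 0.0490). Depth limits Pdk4 most, at 35 to 57 counts per treated library. The cause of these shifts was not tested.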
